A study of Mus musculus with 4 samples.

Results

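Granulocyte-monocyte progenitors and promyelocytes were taken from single-cell RNA profiles of mouse bone marrow and were chosen by their own measured transcripts. A barcode was kept as a cell when it had 200 or more genes detected and no more than 10% of its transcripts from mitochondrial genes. It entered the gate when the transcripts of 4 primary granule genes (Mpo, Elane, Prtn3 and Ctsg) made up at least 1% of its UMIs (unique molecular identifiers, 1 per captured transcript), Mpo had at least 10 UMIs, and 3 secondary granule genes (Camp, Ngp and Ltf) together stayed below 1%. The gate held 1746 of 49567 kept cells (3.52%). The study set YAP1 heterozygote mice against WT mice to compare cell shares and expression in marrow, in work on platelet formation, with 2 libraries for each genotype. All 4 libraries came from primary nucleated marrow cells labelled as 10-week old, sorted by flow cytometry and profiled with the 3′ kit of version 3.1 on the Chromium system; the sort gates and the way the allele was made are not given in the sources used here. Whether each library came from 1 animal or from several is not stated either. The p-values measure the spread between these libraries, in which animals, sex-linked transcripts (given with the depth) and preparation are not separated.

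A granulocyte-monocyte progenitor can give rise to neutrophils and to monocytes. Its neutrophil-committed descendant, the promyelocyte, makes the primary (azurophil) granules, packing myeloperoxidase and the serine proteases elastase, proteinase 3 and cathepsin G into them on the way through the endoplasmic reticulum. Later precursors, the myelocytes, make secondary granules with lactoferrin (Ltf), cathelicidin (Camp) and neutrophilic granule protein (Ngp). The transcription factor IRF8 is known to favour the monocyte fate, and GFI1 and C/EBP-epsilon (Cebpe) the neutrophil fate. YAP1 is a transcriptional coactivator restrained by the Hippo kinases that acts through the TEAD factors.

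The 4 primary granule genes that chose the cells lie on 3 chromosomes of GRCm38: Mpo at chr11:87793581-87804413, Prtn3 at chr10:79874476-79883174, Elane close by at chr10:79886247-79888215, and Ctsg at chr14:56099881-56102574. The sequences before their RefSeq starts are shown because these 4 genes chose the cells and were high together in them. They come from RefSeq promoters on GRCm38.p6, 5′ to 3′ on the gene's strand, and only the bases outside exons annotated by GENCODE M21 are printed. The intervals above are those of GENCODE, and the RefSeq starts of Mpo, Elane and Prtn3 lie inside them, that of Prtn3 several kilobases from the GENCODE start; capitals mark letter matches to 3 motifs, GAGGAA (PU.1), AACNGT (MYB) and TGTGGT (RUNX), searched on both strands.
Mpo, chr11:87793534-87793580, plus strand: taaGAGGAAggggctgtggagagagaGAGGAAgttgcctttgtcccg
Elane, chr10:79886062-79886246, plus strand: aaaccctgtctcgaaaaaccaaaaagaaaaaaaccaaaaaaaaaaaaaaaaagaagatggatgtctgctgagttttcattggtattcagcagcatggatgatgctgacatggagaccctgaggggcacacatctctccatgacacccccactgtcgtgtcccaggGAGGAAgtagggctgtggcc
Prtn3, chr10:79879417-79879613, plus strand: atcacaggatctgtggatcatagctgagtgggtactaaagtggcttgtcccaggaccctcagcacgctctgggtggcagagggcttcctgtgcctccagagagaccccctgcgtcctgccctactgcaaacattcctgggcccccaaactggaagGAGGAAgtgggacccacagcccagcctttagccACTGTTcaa
Ctsg, chr14:56102575-56102824, minus strand: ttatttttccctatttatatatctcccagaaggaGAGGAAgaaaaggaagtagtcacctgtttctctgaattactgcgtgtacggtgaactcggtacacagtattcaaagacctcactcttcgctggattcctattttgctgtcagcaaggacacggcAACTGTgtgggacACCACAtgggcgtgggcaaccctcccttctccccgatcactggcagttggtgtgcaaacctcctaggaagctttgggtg

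Over the 250 bases before each RefSeq gene start, GAGGAA was present in all 4 promoters and occurred at both -247 and -224 of Mpo, counted from the gene start. The same letters are in 23.3% of 32851 mouse promoters of that length. AACNGT was present in Mpo at -165 (inside the annotated exon and not printed), in Ctsg at -92 and, on the opposite strand, in Prtn3 at -62, against 22.3% of all promoters. TGTGGT was present on the opposite strand of Ctsg at -79, against 14.0% of all promoters. The fourth motif searched, TTGCNNAA (C/EBP), had no match in these windows and occurs in 9.56% of all promoters. None of these matches overlapped another.

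Among the markers, Ms4a3, a membrane protein gene of granulocyte-monocyte progenitors at chr19:11629496-11640851, was not part of the gate and stood high in every library. Levels are in CPM, the UMIs of a gene summed over a gate and scaled to a total of 1000000 for all genes. Ms4a3 had 1477 and 1516 CPM in the gated cells of the YAP1 heterozygote libraries, against 1460 and 1588 CPM in the WT libraries. It was lower in each of 3 neighbouring gates in all 4 libraries: 406 to 465 CPM in dividing secondary granule precursors, 52.1 to 78.7 CPM in Cd34 and Kit positive early progenitors, and 13.3 to 25.7 CPM in F13a1 and Csf1r positive monocytes. After each cell was thinned to 3000 UMIs, Ms4a3 was seen in 89.3% and 90.1% of gated YAP1 heterozygote cells and in 87.7% and 90.1% of gated WT cells. The same share in B cells, which should lack it, was 1.74% and 2.80% in YAP1 heterozygote libraries and 4.69% and 2.15% in WT libraries, a level that free RNA in the droplets can give. The other markers, Mpo, Elane, Prtn3 and Ctsg, chose the cells, so only Ms4a3 could go with or against the label, and it went with it. Early progenitors and monocytes were cut at below 1% of the primary granule genes. Ms4a3 went with Elane among gated cells (r = 0.78), so its lower level in those gates can be in part built in. The median depth before thinning was 26557 to 31209 UMIs in gated cells, far above that of B cells (3216.5 in the first YAP1 heterozygote library).

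The gate genes themselves are given as description, since they chose the cells. Mpo, the peroxidase of primary granules, had 6849 and 6682 CPM in gated YAP1 heterozygote cells and 7032 and 6607 CPM in gated WT cells. Of all Mpo UMIs in kept cells, 78.0% and 79.0% in the YAP1 heterozygote libraries and 76.8% and 79.2% in the WT libraries fell inside the gate. Elane had 12009 and 11726 CPM in gated YAP1 heterozygote cells and 11156 and 12069 CPM in gated WT cells, and it was still at 1922 to 2557 CPM in the dividing precursors. The groups overlapped for both genes.

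Cd34, Kit, Fcnb and Cebpe stood in the gated cells between their levels in early progenitors and in dividing precursors. These levels are description with no test: Cd34 and Kit cut the early progenitor gate and F13a1 and Csf1r the monocyte gate, so those gates fix where these genes are high, and the other gates were cut on related genes. Cd34, a surface protein of stem and progenitor cells, was at 57.7 to 75.8 CPM in gated cells over the 4 libraries, 306 to 360 CPM in early progenitors and 2.32 to 4.56 CPM in dividing precursors. Kit, the stem cell factor receptor, followed the same order with a mean of 70.3 ± 2.51 CPM in gated cells, 184 ± 16.8 CPM in early progenitors and 25.2 ± 3.95 CPM in dividing precursors (SD, n = 4 libraries). Fcnb, a secreted lectin of maturing granulocytes, ran the other way, with 340 to 492 CPM in gated cells, 2.06 to 7.19 CPM in early progenitors and 1336 to 1466 CPM in dividing precursors. Cebpe was at 160 to 193 CPM in gated cells, 5.61 to 13.4 CPM in early progenitors and 511 to 606 CPM in dividing precursors. Gfi1, a transcriptional repressor, did not follow this order and was highest in the gated cells (59.8 to 70.7 CPM), above the dividing precursors (29.4 to 42.0 CPM). Irf8 overlapped between gated cells (175 to 224 CPM) and early progenitors (176 to 255 CPM) and was far lower in dividing precursors (23.0 to 38.8 CPM). F13a1, a coagulation factor gene of monocytes, had 221 to 267 CPM in gated cells and 1244 to 1384 CPM in monocytes.

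**Figure D1:**
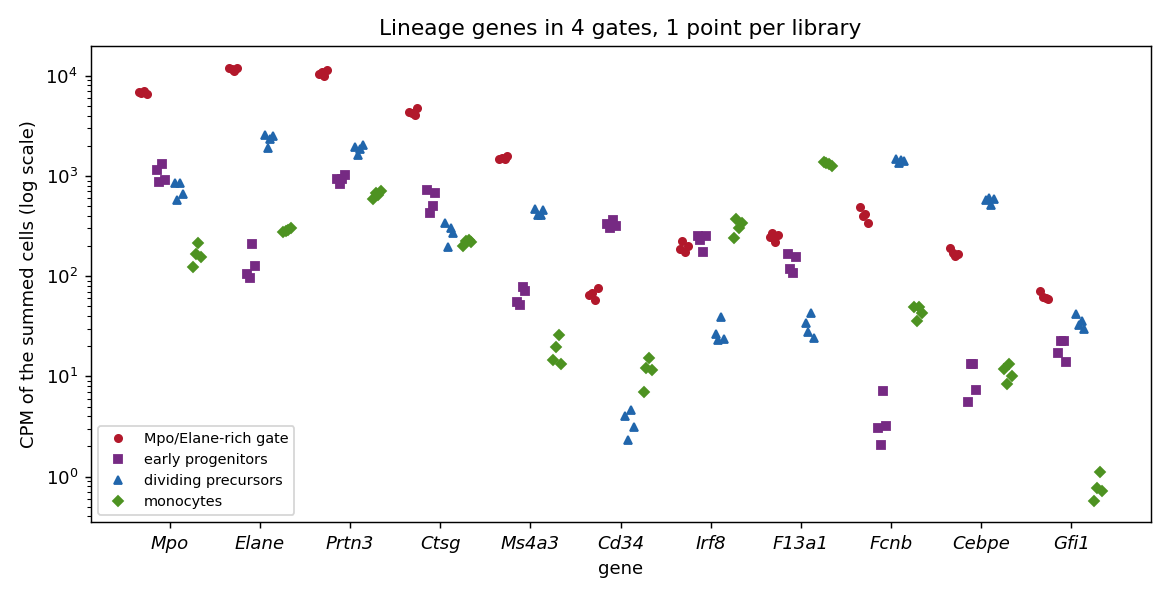
Levels of 11 genes (CPM on a log axis) in gated cells, early progenitors, dividing precursors and monocytes, with 1 point for each library, YAP1 heterozygote and WT. Ms4a3 and the 4 primary granule genes peak in the gated cells, Cd34 in early progenitors, Fcnb and Cebpe in dividing precursors, and F13a1 in monocytes.

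Of 2564 genes with a mean of at least 50 CPM in gated cells, 33 stood above 4 times the level in all other kept cells in every library, and 387 above 2 times that level (with 1 CPM added to both sides; no test). The 33 included the 4 primary granule genes of the gate. The genes named next were picked from the 33 and the 387 after their values were seen. Prss57, a serine protease of primary granules, averaged 291 CPM in gated cells and 23.6 CPM in the rest, and Cst7, the protease inhibitor cystatin F, 254 and 20.7 CPM. Calr, Sdf2l1 and Fkbp11, whose proteins help fold secreted proteins in the endoplasmic reticulum, averaged 1743 against 302 CPM, 322 against 50.3 CPM and 60.9 against 5.38 CPM. Plac8, a myeloid progenitor gene, averaged 4453 CPM in gated cells and 850 CPM in the rest. Of metabolic genes, Alas1, the first enzyme of heme synthesis and so of the cofactor of myeloperoxidase, averaged 306 against 55.0 CPM, Phgdh of serine synthesis 175 against 38.0 CPM, and Srm of polyamine synthesis 172 against 37.2 CPM. Dmkn, a gene better known from skin, had 73.7 to 76.5% of its UMIs inside the gate in every library, the highest share outside the gate genes, with 126 against 5.15 CPM. At the other end, Ly6g, a surface protein of later neutrophils, averaged 4.58 CPM in gated cells and 315 CPM in the rest.

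The summed levels of gene lists followed the same picture. For endoplasmic reticulum folding and secretion, 35 genes summed to 14393 ± 525 CPM in gated cells (SD, n = 4 libraries), 8029 ± 381 CPM in early progenitors, 4168 ± 217 CPM in dividing precursors and 7228 ± 126 CPM in monocytes. Calr alone made up part of this, at 1630 to 1862 CPM in gated cells, 1023 to 1159 CPM in early progenitors and 165 to 217 CPM in dividing precursors. The sum of 58 nuclear genes of oxidative phosphorylation was also highest in gated cells, at 23102 ± 795 CPM, against 16897 ± 542 CPM in early progenitors and 13346 ± 369 CPM in dividing precursors. Ribosome biogenesis genes were not highest there: 30 genes summed to 5599 ± 137 CPM in gated cells, below 6512 ± 221 CPM in early progenitors and above 1096 ± 97.7 CPM in dividing precursors. Myb, a transcription factor of dividing progenitors, was at 347 to 388 CPM in gated cells, overlapping early progenitors (327 to 402 CPM), and at 67.9 to 88.0 CPM in dividing precursors. Immediate early genes, which respond fast to signals and to handling, summed to 2803 ± 484 CPM in gated cells, 9042 ± 1551 CPM in early progenitors, 2647 ± 329 CPM in dividing precursors and 13254 ± 670 CPM in monocytes.

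The share of gated cells did not differ detectably with genotype. The gate took 4.05% (95% Wilson interval 3.70 to 4.44) and 2.93% (2.66 to 3.22) of kept cells in the YAP1 heterozygote libraries, against 4.09% (3.76 to 4.44) and 3.102% (2.80 to 3.43) in the WT libraries. These are 445 and 405 cells in YAP1 heterozygote libraries and 531 and 365 cells in WT libraries. In each genotype 1 library was near 4% and 1 near 3%, and the groups overlapped. The means were 3.49 ± 0.793% in YAP1 heterozygotes and 3.60 ± 0.697% in WT (SD, n = 2 libraries each), a ratio of 0.971 with a two-sided exact permutation p of 0.667, where 0.333 is the smallest value this design allows. As a share of the gated cells and the 3 neighbouring gates together, the values were 16.9% and 14.3% in YAP1 heterozygotes and 16.8% and 15.3% in WT. The intervals here and the limits for counts of 0 cover counting error only.

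The libraries held similar totals. These were 112806900 and 119855112 UMIs (YAP1 heterozygote) and 114943163 and 115773607 UMIs (WT), of which gated cells gave 12.5% and 9.23% in YAP1 heterozygotes and 13.2% and 9.79% in WT. Libraries shared 27 to 62 barcodes pair by pair, but no gated barcode was in more than 1 library. In each genotype the first library had almost no Xist and 52.1 (YAP1 heterozygote) or 64.1 (WT) CPM of the Y-linked gene Ddx3y in gated cells, and the second had 1052 (YAP1 heterozygote) or 1036 (WT) CPM of Xist and no Ddx3y. Each genotype thus held 1 library of each pattern. Near the 1% edge of the primary granule share, Ms4a3 averaged 352 and 252 CPM in YAP1 heterozygotes and 322 and 243 CPM in WT just inside (1 to 1.2%), and 251 and 250.2 CPM in YAP1 heterozygotes and 272 and 190 CPM in WT just outside.

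Inside the gate, monocyte genes and neutrophil genes varied against each other. Across the 1746 cells, with each library centred, Irf8 correlated with Ly86, a monocyte and B cell surface protein gene, at r = 0.89, and with Cebpe at -0.73, Cd63 at -0.86, Gfi1 at -0.56 and Fcnb at -0.46. Levels here were log values of counts scaled to 10000 UMIs per cell, with no smoothing, and the cells share their libraries and differ in depth, so no p is given. Fcnb went with Cebpe (r = 0.67) and with S100a8 (0.87), which encodes a calcium-binding protein abundant in neutrophils, and against Npm1 (-0.69), a nucleolar gene. Cd34 went with Sox4, a progenitor transcription factor, at 0.67, with Irf8 at 0.39 and against Fcnb at -0.59. Of the 2678 genes screened, the highest partners of Ms4a3 were Nkg7, Srgn, Prss57, Elane and Cd63. Among the primary granule genes, Elane and Prtn3 correlated at 0.81, and Mpo at 0.54 with Elane, 0.51 with Prtn3 and 0.51 with Ctsg. The gate was cut on the sum of these 4 genes and on a floor for Mpo, which shapes these values.

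Detection in the same cell was counted after thinning to 3000 UMIs in each of 1734 cells. Irf8 without Fcnb was seen in 415 cells, Fcnb without Irf8 in 637, both in 67 and neither in 615. The cells with both numbered 21 of 439 and 19 of 403 in YAP1 heterozygotes and 18 of 528 and 9 of 364 in WT. Irf8 with Cebpe was seen in 34 cells, against 448 with Irf8 alone and 591 with Cebpe alone. Irf8 with Gfi1 was seen in 16 cells, against 466 and 256 with either alone. The monocyte pair Ly86 and F13a1 shared far more cells, with both in 241, Ly86 alone in 72 and F13a1 alone in 338. Cd34 was seen with Irf8 in 115 cells and without it in 123, but with Fcnb in 18 cells and without it in 220. In B cells, thinned alike, Fcnb was seen in 3.82 to 5.90%, Cebpe in 3.77 to 7.73% and Gfi1 in 3.39 to 7.90%. The cells with Irf8 and Fcnb were 3.86% of all, those with Irf8 and Cebpe 1.96% and those with Irf8 and Gfi1 0.923%. These are shares of all cells, and Irf8 was seen in 27.8%, so they cannot be set beside B cells directly. Among cells with Irf8, Fcnb was seen in 67 and not in 415, a larger part than in B cells. For Cebpe (34 and 448) and Gfi1 (16 and 466) the part was not above the highest B cell share. B cells are not a like background, since gated cells were far deeper before thinning. In YAP1 heterozygotes the globin gene Hbb-bs was seen in 5.47% and 15.1% of thinned gated cells, against 14.2% and 26.7% of B cells. No conclusion is drawn from the B cell shares. How much of these joint counts is background was not tested, and they are not read as cells that express both.

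**Figure D2:**
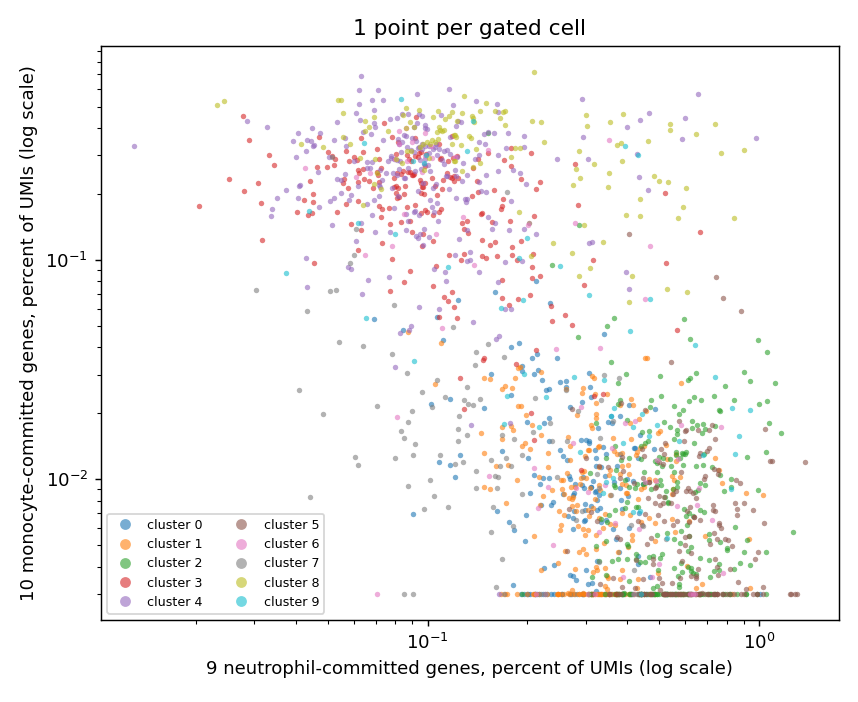
Each point is 1 of the 1746 gated cells, placed by the percent of its UMIs from 9 neutrophil-committed and from 10 monocyte-committed genes (log axes) and coloured by cluster. Values below 0.003% are drawn at 0.003, which holds for 276 cells on the monocyte axis and for 0 on the other; clusters 3, 4 and 8 lie high on the monocyte axis and clusters 2 and 5 high on the neutrophil axis.

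Clustering without the gate and cell cycle genes split the gate into 10 groups, numbered 0 to 9 and called here by their leading genes. Clusters 0 and 1 (191 and 260 cells) were high in the granule genes and low in monocyte genes: Elane was at 13159 and 15754 CPM, Irf8 at 16.2 and 4.45 CPM, and Fcnb at 108 and 348 CPM. Their neutrophil-committed genes (10 genes) summed to 2859 and 3457 CPM, against 5754 and 6302 CPM in clusters 2 and 5. Clusters 2 and 5 (269 and 207 cells) were Fcnb-high, with Fcnb at 1082 and 1446 CPM, Cebpe at 358 and 369 CPM, and almost no Cd34 (1.38 and 1.23 CPM). They also had the highest Elane of the gate, at 19419 and 18725 CPM. Clusters 3, 4 and 8 (214, 254 and 125 cells) were Irf8-high, at 413, 500 and 499 CPM. Their F13a1 was at 472, 589 and 699.7 CPM, and their Ms4a3 at 836, 541 and 652 CPM, against 1804 to 2442 CPM in clusters 0, 1, 2 and 5. Between clusters 3 and 4 and clusters 0 and 2, Mpo varied less than Ms4a3, at 5757 and 5649 CPM against 8605 and 8817 CPM. Cluster 8 is not part of that comparison. Its median share of the 4 primary granule genes was 1.55%, against 2.14 and 1.88% in clusters 3 and 4. Across gated cells Mpo went against Klf4 (r = -0.69), which is high in cluster 8.

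Cluster 8 had the highest sum of the 10 monocyte-committed genes, at 3279 CPM, against 1868 and 2503 CPM in clusters 3 and 4. Its neutrophil-committed genes (10 genes) were also above those of clusters 3 and 4, at 2096 CPM against 1282 and 1225 CPM. Dendritic cell markers (6 genes) summed to 343 CPM in it, against 38.4 CPM in the other gated cells. No order of the clusters was fitted. Klf4, a transcription factor of monocytes, was at 405 CPM in it, against 122 and 175 CPM in clusters 3 and 4, and Kit was at 19.2 CPM, against 61.6 to 96.4 CPM in clusters 0 to 5. Its leading genes also held H2-Aa, H2-Eb1 and Cd74, which present antigen in dendritic cells, B cells and some monocytes. Division differed between clusters with like lineage genes. Top2a, a gene of dividing cells, was at 440 CPM in cluster 1 and 117 CPM in cluster 0. It was at 499.5 CPM in cluster 5 and 133 CPM in cluster 2, and at 582 CPM in cluster 3 and 159 CPM in cluster 4. Cluster 8 had the highest sum of G2/M genes (53 genes), at 12839 CPM, against 10402, 10137 and 9801 CPM in clusters 1, 5 and 3. These cell cycle differences came out although the S and G2/M genes listed were kept out of the clustering. Ribosome biogenesis genes summed to 6800 and 6704 CPM in clusters 3 and 4, and to 3966 and 3941 CPM in clusters 2 and 5.

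Clusters 7 and 9 were led by genes of other lineages and cluster 6 by genes of mature neutrophils. Together they held 13.5% and 12.1% of gated cells in YAP1 heterozygotes and 11.9% and 14.8% in WT. Cluster 7 (101 cells) was led by Prg2, Prss34, Cpa3, Mcpt8 and Epx, which encode granule proteins of eosinophils, basophils and mast cells. It had the highest Cd34 (239 CPM) and Gata2 (119 CPM), a transcription factor of mast cells, basophils and early progenitors, in the gate, and 1.98% of it was called doublets. Cluster 6 (70 cells) was led by Retnlg, Mmp8, Cxcl2 and Mmp9 of mature neutrophils, with 10.0% called doublets. Cluster 9 (55 cells) was led by Igkc, Igha, Jchain, Ebf1 and Cd79a of B and plasma cells, with 14.5% called doublets. Over the whole gate, 26 cells were called doublets.

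**Figure D3:**
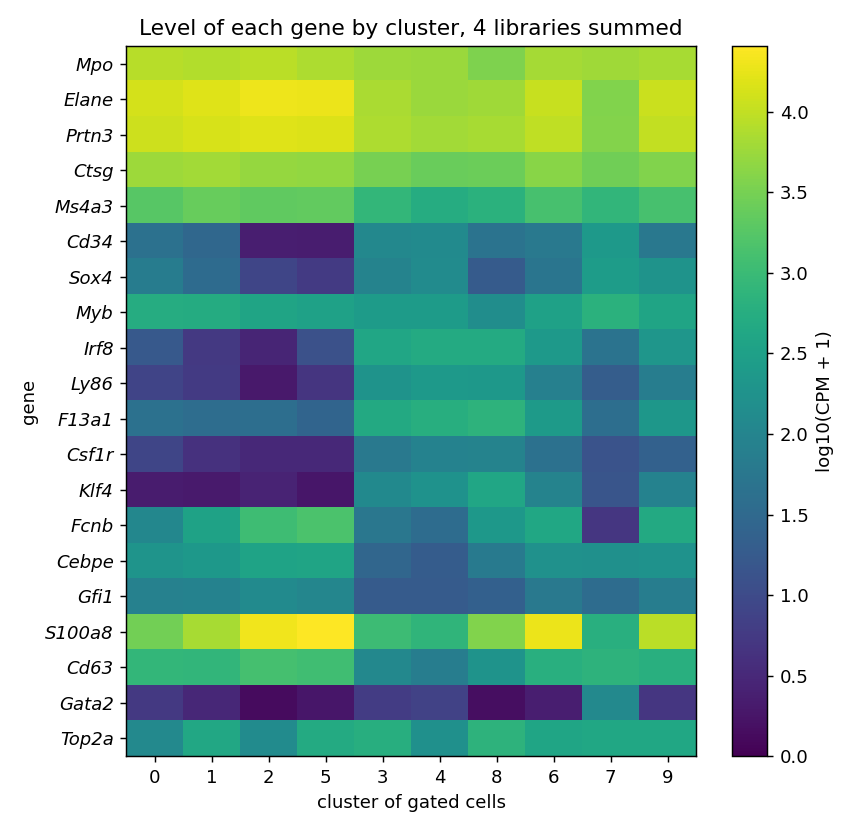
Levels of 20 genes, as log10(CPM + 1), in the 10 clusters of gated cells, summed over the 4 libraries. Irf8, Ly86, F13a1 and Csf1r are high in clusters 3, 4 and 8, Fcnb and Cebpe in 2 and 5, and Gata2 in 7.

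The share of Camp, Ngp and Ltf, kept below 1% by the gate, was cut into ranges over all gated cells, Irf8-high clusters included. Its median was 0.0285, 0.0321 and 0.0343% in clusters 3, 4 and 8, near the 0.0334 and 0.0326% of clusters 0 and 1. It was 0.0608 and 0.0803% in clusters 2 and 5. The lower range thus mixes Irf8-high and other clusters, and the differences below are not an order among neutrophil-committed cells alone. Cells with 0.1% to below 1% made up 15.5 ± 2.88% of gated cells and those above 0 and below 0.1% made up 84.15 ± 2.64% (SD, n = 4 libraries; the differences are described with no test). Fcnb was at 1549 ± 213 CPM in the higher range and 248 ± 33.9 CPM in the lower, and Cebpe at 374 ± 42.6 and 144 ± 11.3 CPM. Elane was at 16519 ± 603 CPM in the higher range and 11039 ± 451 CPM in the lower, whereas Ctsg was at 3626 and 4447 CPM and Mpo at 7008 and 6762 CPM. Lower in the higher range were Cd34 (13.6 ± 4.54 against 74.2 ± 7.63 CPM), Irf8 (66.7 against 216 CPM), Npm1 (1034 against 1979 CPM) and Myb (269.9 against 384 CPM). Id2, an inhibitor of helix-loop-helix factors, was at 104 against 22.0 CPM, higher in the higher range. Summed S phase genes were alike in the ranges, at 3688 and 3693 CPM.

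Every cluster was found in all 4 libraries, and for every group of clusters the genotypes overlapped. Clusters 3, 4 and 8 together held 31.5% and 37.8% of gated cells in YAP1 heterozygotes and 33.7% and 33.2% in WT. Clusters 2 and 5 held 31.5% and 23.95% in YAP1 heterozygotes and 25.6% and 28.2% in WT, and clusters 0 and 1 held 23.6% and 26.2% in YAP1 heterozygotes and 28.8% and 23.8% in WT. The spread between the YAP1 heterozygote libraries was the larger for the Irf8-high clusters (SD 4.47 against 0.395 in WT, n = 2 each).

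**Figure D4:**
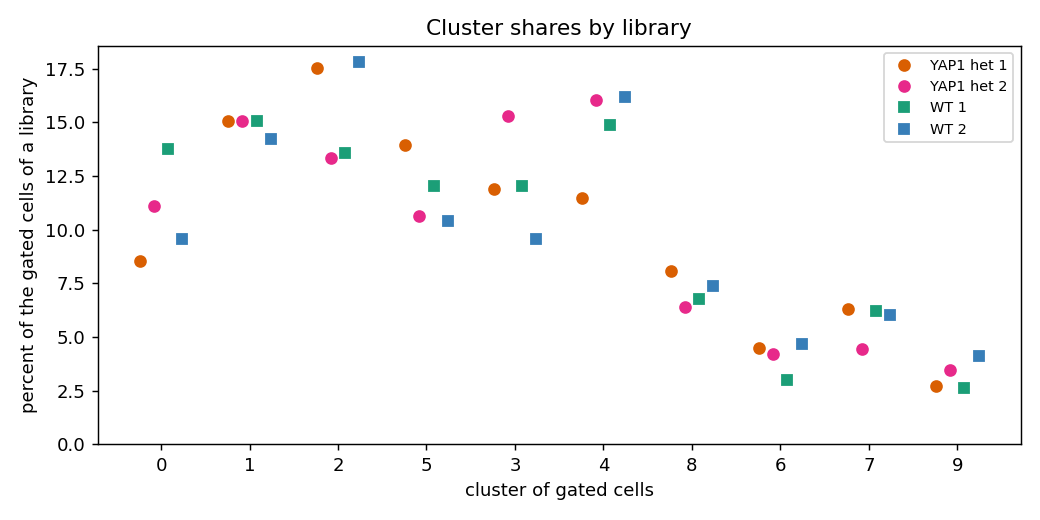
Share of each library's gated cells (percent) in each of the 10 clusters, with 1 point for each library, YAP1 heterozygote and WT. For clusters 3, 4 and 8 together the shares run from 31.5 to 37.8% in YAP1 heterozygotes and from 33.2 to 33.7% in WT.

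Yap1, the gene targeted, was almost not seen in these cells. It had 0 and 1 UMIs in the gated cells of the YAP1 heterozygote libraries and 0 and 0 in those of the WT libraries, so the labels could not be checked with it here. A count of 0, read as up to 3 UMIs, allows up to 0.213 CPM in the first YAP1 heterozygote library and up to 0.198 and 0.265 CPM in the WT libraries. Its relative Wwtr1 had 0 and 0 UMIs in YAP1 heterozygotes and 0 and 2 in WT. Myh9, the non-muscle myosin heavy chain in the study's question, had 165 and 144 CPM in YAP1 heterozygotes and 157 and 141 CPM in WT, and its log2 fold change was 0.05 (SE 0.0909, edgeR adjusted p = 0.999). The groups overlapped.

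With genotype as the only term, no gene passed an adjusted p of 0.05 when the gated cells of the genotypes were compared. In edgeR's quasi-likelihood test on counts summed over the gated cells of each library, 0 of 11496 genes were called (0%), and 402 (3.5%) had an unadjusted p under 0.05. DESeq2 called 1 gene (0.0087%), Car2, a carbonic anhydrase of red cell precursors and other cells, which had 13.7 and 10.6 CPM in YAP1 heterozygotes and 23.6 and 25.1 CPM in WT (log2 fold change -0.99, DESeq2 adjusted p = 0.016; edgeR adjusted p = 0.272). In cluster 0 of the gate, single cells held 131 and 140 of the 356 and 284 Car2 UMIs of the WT libraries. With the top cell of each library left out, the log2 fold change of Car2 was -0.28 (edgeR adjusted p = 1.00). Leaving out 1 library gave 3, 9, 28 and 138 calls without YAP1 heterozygote replicate 1, YAP1 heterozygote replicate 2, WT replicate 1 and WT replicate 2 in that order; the lone library is then assumed to vary like the others. In data simulated at this size, 67, 65 and 64 of 11349 genes were given changes of 1.5-fold, 2-fold and 4-fold in the same run. The test called 49.3%, 89.2% and 98.4% of them in that order. Whether these shares hold for the real libraries, with their own spread and number of changed genes, was not tested.

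No lineage marker passed the adjusted threshold between genotypes. For Ms4a3 the log2 fold change was -0.03, with an SE of 0.0826 and an edgeR adjusted p of 0.999. Both YAP1 heterozygote libraries lay above both WT libraries for 14.8% of all genes tested and below them for another 14.8%. The 10 monocyte-committed genes all had positive log2 fold changes, with a median of 0.10 beside 0.002 over all genes tested, and 1 of them, Fn1, did not overlap between groups. Fn1 had 20.4 and 24.7 CPM in YAP1 heterozygotes and 15.9 and 15.2 CPM in WT (log2 fold change 0.53, edgeR adjusted p = 0.780). Of 9 neutrophil-committed genes 7 were positive, with a median of 0.14, and 4 did not overlap (Chil3, Gfi1, Cebpe and Serpinb1a). Cebpe had 193 and 172 CPM in YAP1 heterozygotes and 160 and 168 CPM in WT (log2 fold change 0.15, edgeR adjusted p = 0.999). Of 8 early progenitor genes 3 were positive, with a median of -0.03 and overlap in all 8.

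The genes with the smallest unadjusted p are given as values, not as changes. Cxcl2, a neutrophil-attracting chemokine at chr5:90903871-90905938, had 18.6 and 18.3 CPM in YAP1 heterozygotes and 67.1 and 35.1 CPM in WT. Its log2 fold change was -1.48 (SE 0.235, edgeR adjusted p = 0.367). Cxcl2 was concentrated in cluster 6, at 497 CPM against 15.5 CPM in the other gated cells, and without clusters 6, 7 and 9 its log2 fold change was -1.76. Ddit3 (ENSMUSG00000025408; the symbol is shared by a pair of IDs), a stress transcription factor, had 26.2 and 18.8 CPM in YAP1 heterozygotes and 59.7 and 29.99 CPM in WT (log2 fold change -1.001, edgeR adjusted p = 0.780). Both genes were highest in WT replicate 1. Dennd4a, a regulator of RAB GTPases, and Ahnak, a very large scaffold protein, were closer within groups: Ahnak had 40.5 and 38.2 CPM in YAP1 heterozygotes and 54.0 and 54.3 CPM in WT.

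Dusp1, a phosphatase that switches off MAP kinases, at chr17:26505590-26562128, had 169.5 and 127 CPM in YAP1 heterozygotes and 70.1 and 105 CPM in WT. Its log2 fold change was 0.76 (SE 0.170, edgeR adjusted p = 0.773). Clec4a2, a lectin receptor of myeloid cells at chr6:123106428-123143999, had 188 and 185 CPM in YAP1 heterozygotes and 140 and 146 CPM in WT (log2 fold change 0.38, SE 0.0766, edgeR adjusted p = 0.689). Chil3, a chitinase-like protein of maturing granulocytes and monocytes, had 285 and 298 CPM in YAP1 heterozygotes and 230.4 and 179.9 CPM in WT. Egr1, an early growth response factor, had 54.9 and 34.8 CPM in YAP1 heterozygotes and 25.7 and 30.4 CPM in WT. For all 4 genes the libraries of the genotypes did not overlap, but this was a condition for being named here and is not a result. It held for 29.6% of all genes tested in either direction.

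**Figure D5:**
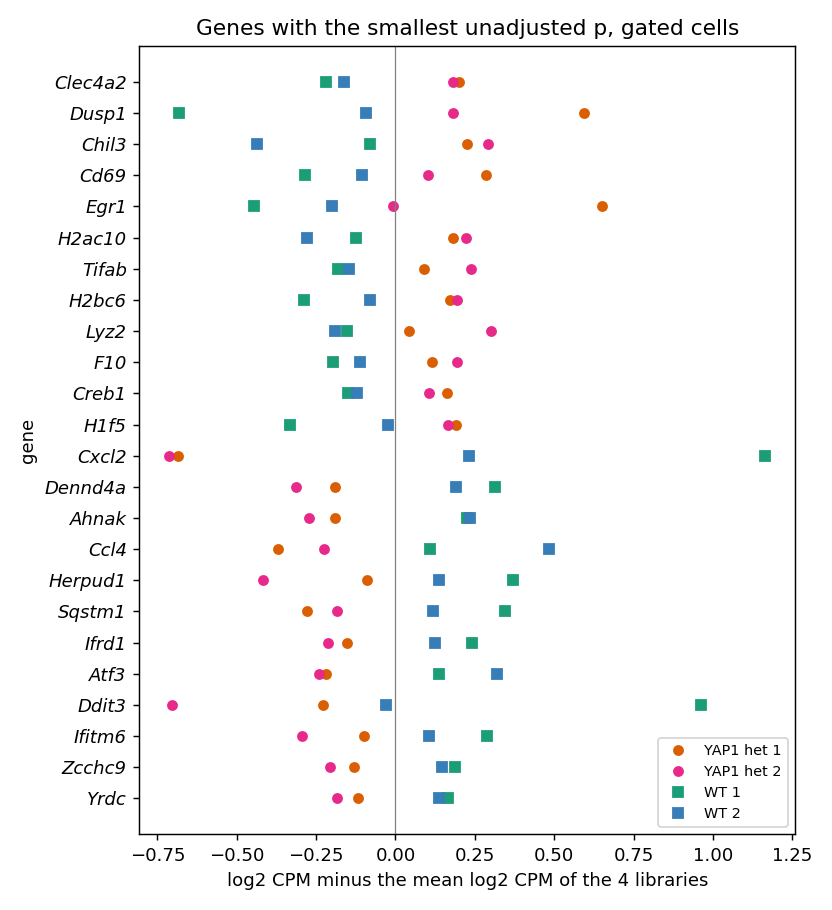
The 24 genes with the smallest unadjusted p under the naming rule, as log2 CPM minus the mean over the 4 libraries, with 1 point for each library, YAP1 heterozygote and WT. Cxcl2 and Ddit3 spread most in WT, and no gene passed the adjusted threshold.

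Among the lists, the NF-kB and inflammatory genes leaned lower in YAP1 heterozygotes. Of 28 tested 24 had negative and 4 positive log2 fold changes, with a median of -0.33 beside 0.002 over all genes, and 16 had both YAP1 heterozygote libraries below both WT libraries, as did 14.8% of all genes tested. None was called by edgeR; 13 had an unadjusted p under 0.05. Their summed level was 754.6 and 686.5 CPM in YAP1 heterozygotes and 1009 and 829.8 CPM in WT, and WT replicate 1 was the highest library; without it the median was -0.18. Between the first libraries of the genotypes the median was -0.28, and between the second it was -0.29. In the same libraries the list had a median of -0.27 in dividing precursors (23 of 28 negative), -0.67 in early progenitors (24 of 26) and -0.56 in monocytes (26 of 28), with 0 of its genes called by edgeR in any of these gates. Nfkbia, the inhibitor that NF-kB itself induces, overlapped, with 140 and 102 CPM in YAP1 heterozygotes and 252 and 127 CPM in WT. Tnfaip3, another feedback inhibitor, had 9.88 and 7.59 CPM in YAP1 heterozygotes and 34.6 and 11.2 CPM in WT. The subunit gene Nfkb1 was level, at 67.5 and 62.5 CPM in YAP1 heterozygotes and 65.6 and 65.8 CPM in WT. Markers of mature neutrophils (7 genes) summed to 17234 and 16713 CPM in YAP1 heterozygotes and 16960 and 13340 CPM in WT, and their part in the result was not tested. With the primary granule share set to at least 2%, the median of the NF-kB list was -0.12.

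The immediate early genes were mixed. Of 24 tested 16 were positive and 8 negative, with a median of 0.11, which was 0.28 between the first libraries of the genotypes and -0.17 between the second. Fos had 643 and 489 CPM in YAP1 heterozygotes and 222 and 478 CPM in WT, and Fosb 140 and 81.8 CPM in YAP1 heterozygotes and 59.7 and 84.2 CPM in WT. WT replicate 1 was the lowest library for both. Atf3 went the other way, with 28.1 and 27.7 CPM in YAP1 heterozygotes and 35.9 and 40.8 CPM in WT.

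The lists tied to YAP1 showed little. Of 27 Hippo kinases, adaptors and partners 20 were tested, 10 in each direction, with a median of 0.002. Of 22 YAP and TEAD target genes 9 passed the filter on low counts, 5 positive and 4 negative with a median of 0.04; those that passed are not the whole list. Of 32 actomyosin genes 29 were positive, but the median was 0.05, and 11 had both YAP1 heterozygote libraries above both WT libraries (14.8% of all genes tested did). Genes of mitosis (G2/M) had a median of 0.07, with 42 of 53 positive and 21 with both YAP1 heterozygote libraries above both WT libraries, beside the same 14.8% of all genes. Mki67 had 362 and 330 CPM in YAP1 heterozygotes and 302 and 317 CPM in WT. Ribosome biogenesis, endoplasmic reticulum and oxidative phosphorylation genes had medians of -0.01, -0.02 and -0.02. None of the 32 lists had a gene called by edgeR; the unadjusted counts ranged from 0 to the 13 of the NF-kB list.

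Within clusters the genotype comparison rested on fewer cells. Clusters 6, 7 and 9 had under 20 cells in a library and were not tested. In clusters 1, 4 and 5 edgeR called 0 genes (0%), with 352, 356 and 306 at an unadjusted p under 0.05; DESeq2 called 0, 0 and 1 gene. In the Irf8-high cluster 3, 5 of 8998 genes were called (0.0556%). Dusp1 rose in it, with 185 and 148 CPM in YAP1 heterozygotes and 86.7 and 89.0 CPM in WT (log2 fold change 0.90, edgeR adjusted p = 0.0267). Fosb rose as well, with 217 and 132 CPM in YAP1 heterozygotes and 87.1 and 86.9 CPM in WT (0.98, edgeR adjusted p = 0.046). Pglyrp1, a peptidoglycan-binding granule protein, fell to 54.0 and 32.5 CPM in YAP1 heterozygotes, against 98.2 and 79.1 CPM in WT, and Ccl5 and Xcl1 were the other genes called, with 82.1% of the Xcl1 UMIs in a single cell of 1 library. DESeq2 called none of these.

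In cluster 8, which had the highest sum of monocyte-committed genes, 7 of 7760 genes were called (0.0902%), 1 of them a gate gene. Fn1, the fibronectin gene, had 155 and 244 CPM in YAP1 heterozygotes and 89.2 and 89.99 CPM in WT (log2 fold change 1.13, edgeR adjusted p = 0.0216). Lyz2, the lysozyme gene of monocytes and granulocytes, had 3121 and 4750 CPM in YAP1 heterozygotes and 2349.8 and 1823 CPM in WT (0.93). Dusp1 had 354 and 316 CPM in YAP1 heterozygotes and 73.5 and 191 CPM in WT (1.38, edgeR adjusted p = 0.0319). H2-Eb1, a class II antigen presentation gene, had 26.2 and 58.8 CPM in YAP1 heterozygotes and 136 and 134 CPM in WT (-1.78). It rested on few cells: single cells held 26 of 35 and 45 of 46 of its UMIs in YAP1 heterozygotes. In WT they held 71 of 156 and 100 of 136. With the top cell of each library left out it was still called, at a log2 fold change of -3.53. Of the cells of cluster 8, 4.8% were called doublets. DESeq2 called 0 genes there.

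In cluster 0, 22 of 7490 genes were called (0.294%), 2 higher and 20 lower, but many rested on single cells. Globin and other red cell genes were among them, and 98.3% of the Hbb-bt UMIs of WT replicate 1 came from 1 cell. With the top cell of each gene left out of each library, 6 genes were called, Dusp1 and Neat1 higher and Ube2c, Vcam1, H2ac24 and Tuba1c lower. Dusp1 had 98.9 and 80.9 CPM in YAP1 heterozygotes and 40.6 and 45.4 CPM in WT (log2 fold change 1.08). In cluster 2, 3 of 7929 genes were called (0.0378%), and none with the top cells left out. Dusp1 was thus called in 3 of the 7 clusters tested and had YAP1 heterozygote libraries above both WT libraries in 5 of them; it was looked at across clusters after its values were seen, and the clusters share their libraries.

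The difference of the genotype effect between gated cells and each neighbouring gate was tested as an interaction with the library as a term. It was called for 1 of 12342 genes against dividing precursors (0.0081%), for 3 of 12009 against early progenitors (0.025%) and for 8 of 12268 against monocytes (0.0652%), 2 of the last being gate genes. The largest in size among them with a lineage role was Fn1 against early progenitors, with an interaction of 2.15 on the log2 scale (SE 0.231, edgeR adjusted p = 0.00158). Fn1 had 20.4 and 24.7 CPM in gated YAP1 heterozygote cells and 15.9 and 15.2 CPM in gated WT cells, but 10.4 and 21.1 CPM in YAP1 heterozygote and 45.7 and 47.7 CPM in WT early progenitors.

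The summed transcripts of other lineages overlapped between genotypes in the gated cells. B cell markers (7 genes) summed to 74.7 and 100.6 CPM in YAP1 heterozygotes and 78.2 and 90.5 CPM in WT. Erythroid markers (7 genes) summed to 592 and 157 CPM in YAP1 heterozygotes and 194 and 382 CPM in WT, with 20.2 to 71.0% of a library's UMIs in its top cell. Their median log2 fold change was -0.44, but it was 0.31 between the first libraries of the genotypes and -0.97 between the second. Of the 7 genes 3, among them Car1 and Klf1, had both YAP1 heterozygote libraries below both WT libraries, as did 14.8% of all genes tested. Car1 and Klf1 each had an unadjusted p under 0.05. In cluster 0 single cells held 37 of 39 and 11 of 16 Car1 UMIs of the WT libraries. Basophil and mast cell markers (6 genes) summed to 199 and 90.4 CPM in YAP1 heterozygotes and 215 and 97.6 CPM in WT, higher in the first library of each genotype. T and NK cell markers (5 genes, Nkg7 not among them) were near 0, at 2.03 to 4.50 CPM. Nkg7, also a marker of T and NK cells, was at 811 to 931 CPM in gated cells. Xcr1 of dendritic cells was at 0 in 3 of the 4 libraries. Macrophage markers (6 genes) summed to 106 and 88.3 CPM in YAP1 heterozygotes and 95.4 and 89.97 CPM in WT, nearly all of it Vcam1. The other macrophage genes were low. Of the 4 genes tested C1qa, C1qb and Mrc1 had both YAP1 heterozygote libraries above both WT libraries, as did 14.8% of all genes tested. These 3 had an unadjusted p under 0.05, as did 3.5% of all genes, and the median log2 fold change of the 4 was 1.72. They rested on few counts: C1qa had 43 UMIs in 5 of 445 gated cells of the first YAP1 heterozygote library. The complement gene C1qa was at 3.06 and 1.54 CPM in YAP1 heterozygotes and 0.662 and 0.353 CPM in WT. The part of these cells in the genotype values was not tested.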

How the data were processed

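Per the labels' protocols, flow-sorted marrow cells were captured in droplets and libraries were made with the Single Cell 3′ kit V3.1. The authors deposited, for each of 4 libraries, UMI counts that were not normalized, in a matrix of 32544 genes by barcodes. Per the file headers the matrices were written by Cell Ranger 5.0.0, whereas the submitters' processing notes name Cell Ranger 3.0.0, Seurat 4.3.0 and GRCm38 (mm10). The barcodes were taken as deposited.

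Kept cells, the gate and the neighbouring gates were cut as described in the results, and the members and gene lists were chosen with earlier results of these data known. Counts were summed over each library's gated cells and tested with edgeR 4.0.16 (R 4.3.3; filterByExpr, TMM, quasi-likelihood test, Benjamini-Hochberg threshold 0.05 over all genes tested), 2 YAP1 heterozygote against 2 WT libraries with genotype as the only term. DESeq2 1.42.0 was an alternative. The interaction fits had library, gate and genotype by gate as terms. The 7 gate genes are given as values only. The fits were tested on simulated data, with 11349 genes drawn from the real means and library sizes.

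Gated cells were clustered with scanpy 1.11.5 (counts scaled to 10000, 1500 variable genes, 20 components, 15 neighbours, Leiden resolution 0.5), without the gate, S phase, G2/M, immunoglobulin, T cell receptor and sex chromosome genes. Scrublet was run on each library and its doublets were kept, except in 1 alternative. Shares of cells with a UMI were taken after thinning to 3000 UMIs per cell, which left out 6 and 2 shallower gated cells in YAP1 heterozygote libraries and 3 and 1 in WT libraries. The named genes were the fixed markers and, in each direction, the 12 genes with the smallest unadjusted p among the non-overlapping genes whose average log2 CPM was 5 or more. Gene positions are those of GENCODE M21 on GRCm38. Depth was 365 to 531 gated cells and 11062809 to 15115915 UMIs for each library. Alternatives changed the scaling, the tool, the filter on low counts, the gate limits, doublets, the weight of cells, single cells, a replicate block and each library in turn.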

Additional observations from a re-analysis of the deposited data

Results flagged for a closer look

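Each result here was flagged because the difference between YAP1 heterozygote and WT libraries was not the same in the gated cells as in a neighbouring gate, by edgeR's test of the interaction itself. Values are the gated difference minus the neighbour's difference on the log2 scale, with the CPM of each library. No cause was tested.

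Against early progenitors, Fn1 had an interaction of 2.15 (SE 0.231, edgeR adjusted p = 0.00158). Cd69, an early activation marker of lymphocytes, had 1.19 (edgeR adjusted p = 0.0204), with 71.7 and 63.2 CPM in YAP1 heterozygotes and 48.3 and 54.7 CPM in WT among gated cells. In early progenitors Cd69 was at 259 and 159 CPM in YAP1 heterozygotes and 354 and 346.5 CPM in WT. Naaa, a lysosomal amidase, had 2.26 (edgeR adjusted p = 0.0429), with 12.7 and 14.6 CPM in YAP1 heterozygotes and 11.25 and 10.8 CPM in WT among gated cells, and 4.31 and 3.61 CPM in YAP1 heterozygotes and 16.3 and 14.2 CPM in WT among early progenitors. For all 3 the groups did not overlap in either gate and went in opposite directions.

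Against dividing precursors, Cpa3, a mast cell and basophil protease, had 1.66 (SE 0.204, edgeR adjusted p = 0.0493). It overlapped in gated cells, with 37.8 and 23.7 CPM in YAP1 heterozygotes and 38.1 and 26.8 CPM in WT, and was at 2.40 and 0.927 CPM in YAP1 heterozygotes and 6.52 and 4.82 CPM in WT among dividing precursors. This call passed in 2 of 6 other settings.

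Against monocytes, S100a9 had 0.52 (edgeR adjusted p = 0.000156), with 8295 and 7769 CPM in YAP1 heterozygotes and 7325 and 6197 CPM in WT among gated cells. In monocytes S100a9 was lower in both YAP1 heterozygote libraries (2719.9 and 2727 CPM) than in both WT libraries (3597 and 3091 CPM). S100a8, its partner protein gene, had 0.38 (edgeR adjusted p = 0.00344), with 8503 and 8650 CPM in YAP1 heterozygotes and 9283 and 6738 CPM in WT among gated cells, which overlapped. The class II genes went the other way: Cd74 had -0.92 (edgeR adjusted p = 0.00199), with 30.2 and 42.7 CPM in YAP1 heterozygotes and 40.0 and 61.2 CPM in WT among gated cells, and H2-Eb1 had -1.67 (edgeR adjusted p = 0.0083), with 7.04 and 9.67 CPM in YAP1 heterozygotes and 13.1 and 19.2 CPM in WT. In monocytes Cd74 was at 633 and 1086 CPM in YAP1 heterozygotes and 502 and 754 CPM in WT. Vegfa, a vessel growth factor, had 1.51 (edgeR adjusted p = 0.00966) and Rgcc, a cell cycle regulator, had 1.37 (edgeR adjusted p = 0.0144). Both overlapped in gated cells and were lower in YAP1 heterozygote monocytes: Rgcc was at 37.0 and 38.5 CPM in YAP1 heterozygotes and 117 and 74.0 CPM in WT there. Of 6 other settings, the calls of S100a8 and H2-Eb1 passed in 5 and those of Vegfa and Rgcc in 4; they were lost with a YAP1 heterozygote library left out.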

How the results depend on the processing

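The main limits are 2 libraries per genotype, no Yap1 counts to check the labels, and single cells that carry whole genes in small clusters. The count of called genes in the gated cells was 0 under RLE factors, library totals, a 50-UMI filter, all gate limits tried, and with doublets or top cells left out. It was 88 of 17211 with no filter on low counts and 1 with DESeq2 (Car2). With clusters 6, 7 and 9 left out it was 2 (Car2 and Mcpt8). That alternative was chosen after seeing the data, as were those within clusters. Leaving out 1 library gave 3 to 138 calls. The log2 ratio of shares of gated cells ranged from -0.30 to 0.17 when 1 library was left out, and turned positive without YAP1 heterozygote replicate 2 and without WT replicate 1 (0.17 each). With the replicate number as a block, 16 genes were called, 1 higher and 15 lower, among them Cxcl2 (edgeR adjusted p = 0.0022), Ddit3, Ccl4, Dennd4a, Tnfaip3 and Ahnak. Same-numbered libraries deviated together (r = 0.58, or 0.28 without sex chromosome genes), but with 2 pairs and no label they were not treated as paired. The interaction count against dividing precursors was 0 with RLE factors, 0 with the 50-UMI filter and 2 to 51 with 1 library left out. Against early progenitors it was 8 with the 50-UMI filter and 18 to 112 with 1 library left out, and against monocytes 8 to 67. Within clusters, with the top cells left out, 6 genes were called in cluster 0, 0 in cluster 2 and 1 in cluster 4. In cluster 3, Dusp1, Fosb, Pglyrp1 and Ccl5 stayed called and Chil3, Fos and Egr1 joined them. In cluster 8, Fn1, Lyz2, Dusp1 and H2-Eb1 stayed called and H2-Ab1, H2-Aa and Cd74 joined them. DESeq2 called 4 in cluster 0, 0 in clusters 2, 3 and 8, and 1 in cluster 5. With 1 library left out the counts were 33 to 53 in cluster 0, 0 to 36 in cluster 1, 1 to 11 in cluster 2, 24 to 127 in cluster 3, 0 to 58 in cluster 4, 4 to 15 in cluster 5 and 4 to 66 in cluster 8. Log2 fold changes of these genes turned sign in single settings. Ahnak was 0.23 with a primary granule share of at least 2%, and Cd34 0.037 with a secondary share below 0.5%. Kit was 0.039 and Adgrg1 0.038 after thinning. Csf1r was -0.0052 with at least 20 Mpo UMIs and -0.18 after thinning. Ctss was -0.033 and Mpeg1 -0.030 without doublets, and -0.091 and -0.15 after thinning in that order. Cd63 was 0.0040 without clusters 6, 7 and 9. With 1 library left out the ranges crossed 0 for Ms4a3 (-0.085 to 0.037), Cd34 (-0.20 to 0.19), Sox4 (-0.065 to 0.18), Meis1 (-0.16 to 0.23), Cd27 (-0.43 to 0.13), Myct1 (-0.26 to 0.022), Irf8 (-0.012 to 0.27), Ly86 (-0.046 to 0.17), Csf1r (-0.12 to 0.15), F13a1 (-0.017 to 0.22), Klf4 (-0.087 to 0.35), Ms4a6c (-0.064 to 0.12), Ctss (-0.0076 to 0.21), Mpeg1 (-0.046 to 0.15), Gstm1 (-0.15 to 0.0066), Cd63 (-0.12 to 0.088), Cebpd (-0.075 to 0.45) and Myh9 (-0.040 to 0.14). Of these genes only Ahnak was called in the 4 libraries together, with the block (edgeR adjusted p = 0.0269) and with no filter on low counts, and the cause of these moves was not tested.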
